A study of Mus musculus with 20 samples.

Results

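The interferon-response genes described here are 45 mouse genes of the antiviral programme, chosen by name from textbook families of interferon-induced genes and looked up by the gene name that the array gives to its probes. All 45 had a probe, 55 probes in all, among the 55681 probes of the array, and each gene was read from its brightest probe. A gene was tested where its probe stood well above background on 4 or more of the 20 arrays, which 38 of the 45 genes did among 27156 genes in all. Levels are log2 signals minus the 75th percentile of the array, so 1 unit is a 2-fold change and a level is only ever compared with the level of the same probe.

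The 20 arrays hold RNA of 10 mouse pluripotent lines, 2 arrays per line. All were kept feeder-free in 2i medium and none was treated, so that no interferon was added. Of the 7 induced pluripotent stem cell (iPSC) lines, 4 were made with OSKM (Oct4, Sox2, Klf4 and Myc) and 3 with SNEL (Sall4, Nanog, Esrrb and Lin28). Their labels grade KH2_OSKM, Nanog-GFP OSKM#2 and Oct4-GFP OSKM#2 as poor (3 lines), Nanog-GFP SNEL#3 and BC_2 OSKM as good (2), and Oct4-GFP SNEL#1 and Nanog-GFP SNEL#2 as high quality (2). The controls were 3 embryonic stem cell (ESC) lines named Oct4-GFP ESCs, KH2 ESCs and Nanog-GFP ESCs. Whether both arrays of a line stem from separate cultures is not stated, so they were averaged and n counts lines. The p-values set a difference between groups against the spread of these lines within groups. Lines that share a name, such as Nanog-GFP, were not paired in the fit. Per the barcodes, the arrays lie on 3 slides. Slide 1 holds an array of each iPSC line and of KH2 ESCs. Slide 2 holds the other array of the iPSC lines except Oct4-GFP SNEL#1, and an array of Nanog-GFP ESCs and Oct4-GFP ESCs. Slide 3 holds the other array of Oct4-GFP SNEL#1 and of the ESC lines. Slides and groups are thus not balanced, and slide was not part of the main fit. All poor lines are OSKM lines and both high lines are SNEL lines, so that grade and factors can be told apart only through the 2 good lines.

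Interferons are secreted when a cell senses foreign nucleic acid. They bind receptors that act through JAK kinases on STAT proteins. Complexes of STAT proteins then bind DNA elements called the interferon-stimulated response element (ISRE) and the gamma-activated site (GAS). The genes so induced encode sensors, enzymes that degrade or trap viral RNA, the ubiquitin-like protein ISG15, and the machinery that presents peptides to T cells. Pluripotent mouse cells are known for a weak response to interferon.

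The members' own promoters show what the group shares in sequence. RefSeq promoters of GRCm38.p6, 250 bases before to 50 after the start site, were found for 36 of the 45 genes. The ISRE core GAAANNGAAA, searched on both strands, was in 18 of these 36 (50%), against 3.44% of 32851 promoters. The GAS TTCNNNGAA, which reads alike on both strands, was in 11 of 36 (30.6%), against 8.3% of all promoters. A member counts if any of its start sites holds a match, while the 32851 are single promoters, so the shares are not alike. Members with a match and more than 1 start site were Ifit2, Irf1, Irf8 and Isg20 for the GAS and Gbp3 for the core. A match is a run of letters and does not show that a protein binds there. The windows of 8 members to which the results return are printed 5′ to 3′ on the gene's strand, with the matches in capitals. Isg15, Ifit1 and Ifit3 are shown as members with several cores, Oas1a and Bst2 because they were higher in every poor line, and Igtp, Oas3 and Irgm1 because they differed widely between lines.
Isg15, chr4:156200850-156200921, minus strand: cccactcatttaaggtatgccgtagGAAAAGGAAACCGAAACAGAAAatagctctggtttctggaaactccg
Ifit1, chr19:34640760-34640838, plus strand: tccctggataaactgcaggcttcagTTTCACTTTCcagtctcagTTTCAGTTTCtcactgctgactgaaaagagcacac
Ifit3, chr19:34583348-34583441, plus strand: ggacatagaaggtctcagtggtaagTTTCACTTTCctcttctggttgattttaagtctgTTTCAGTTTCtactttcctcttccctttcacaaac
Oas1a, chr5:120907526-120907648, minus strand: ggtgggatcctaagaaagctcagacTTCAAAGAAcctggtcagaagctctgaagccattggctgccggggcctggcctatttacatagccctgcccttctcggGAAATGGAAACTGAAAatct
Bst2, chr8:71537562-71537633, minus strand: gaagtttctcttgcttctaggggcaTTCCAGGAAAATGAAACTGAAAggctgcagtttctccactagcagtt
Igtp, chr11:58199486-58199555, plus strand: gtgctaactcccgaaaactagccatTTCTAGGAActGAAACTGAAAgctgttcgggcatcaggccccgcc
Oas3, chr5:120777700-120777759, minus strand: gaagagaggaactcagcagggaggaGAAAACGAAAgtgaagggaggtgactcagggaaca
Irgm1, chr11:48871421-48871475, minus strand: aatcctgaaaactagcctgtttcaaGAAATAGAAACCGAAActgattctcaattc

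In Isg15 3 overlapping cores follow each other, and in Oas1a, Bst2 and Irgm1 a pair of cores shares its middle letters. In Ifit1 and Ifit3 the cores lie on the other strand and so read TTTCNNTTTC. Oas1a and Igtp also hold a GAS upstream of the core, and in Bst2 the GAS and the first core overlap. The promoter of Ube2l6, the member with the largest difference between grades, held neither motif in this window, nor did those of Psmb9 and Tap1.

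Most members were detected in these untreated lines, and 7 were below the filter. Per array, 27 to 38 of the 45 members were well above background, with 30 to 38 in poor, 27 to 35 in good, 29 to 38 in high and 31 to 36 in ESC lines. On all 20 arrays 26 members were above background. The 7 members below the filter were Ifit1, Ifit3, Mx1, Usp18, Oas1g, Gbp3 and Ifi44. Ifit1 binds foreign RNA ends, Mx1 is a dynamin-like antiviral GTPase and Usp18 removes ISG15 from proteins. Ifit3 and Mx1 were above background on 0 of 20 arrays, Ifit1 and Usp18 on 1 array, Gbp3 and Ifi44 on 2, and the better of the 2 Oas1g probes on 1. Of the 5 whose promoter was found, 4 hold the ISRE core, Ifit1 and Ifit3 among them. Of the 31 tested members with a promoter, 14 (45.2%) hold it.

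**Figure D1:**
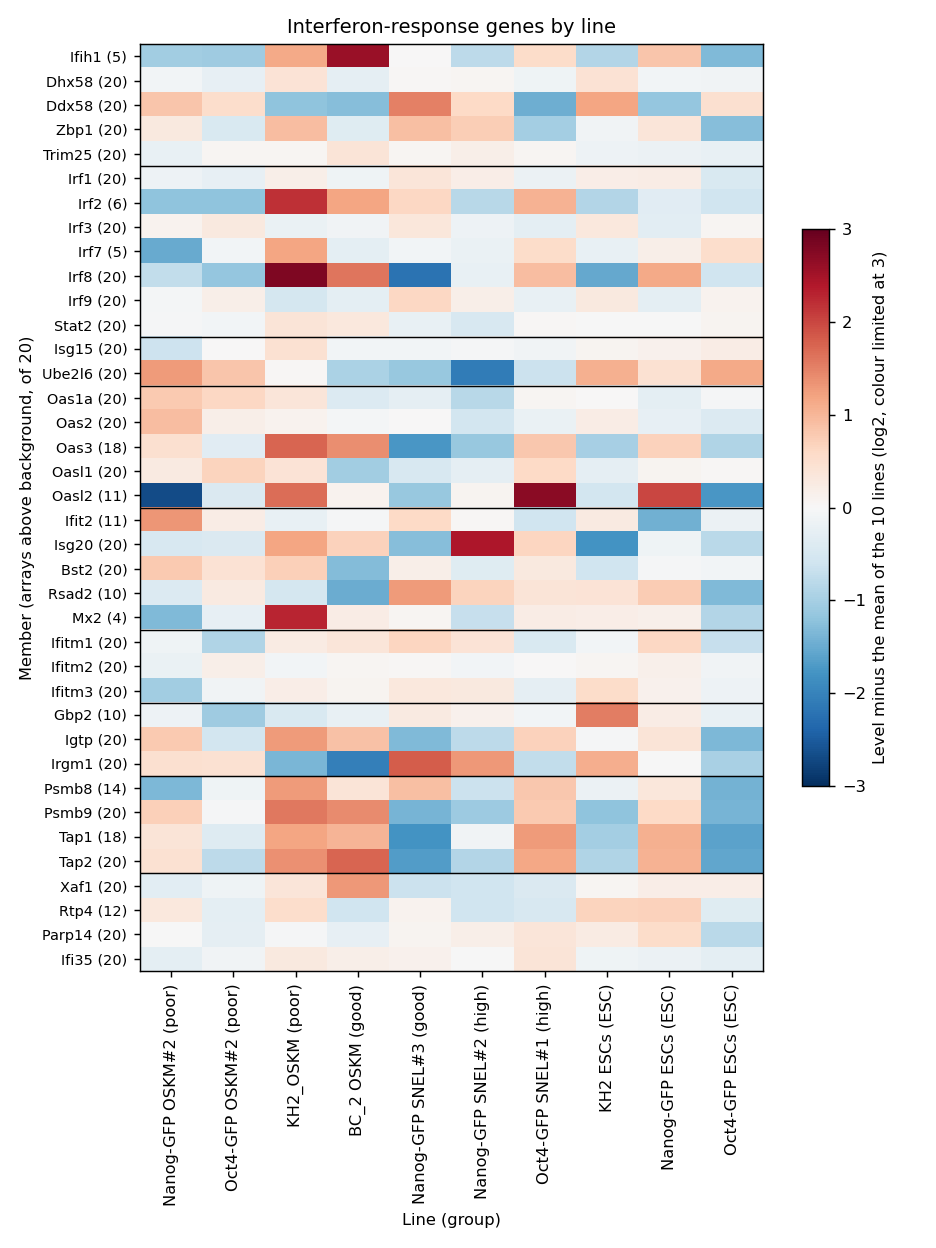
Level of the 38 tested interferon-response genes (rows, ordered by role, with the number of 20 arrays above background) in the 10 lines (columns, with their group), as the log2 difference from the gene's mean over the lines. Irf8, Isg20, Ddx58, Irgm1 and the Psmb9, Tap1 and Tap2 rows differ widely between lines of the same grade, while Irf1, Irf3, Stat2, Trim25 and Ifitm2 are nearly flat.

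All 10 pluripotency markers (Pou5f1, Nanog, Sox2, Esrrb and others) were above background on 20 arrays, and the log2 of their summed levels, which the brightest probes set, lay between 9.58 and 9.87 in every group. Single markers moved more: 9 of 10 had a negative difference between poor and good and high lines (median -0.15), with Klf4 at -0.67 ± 0.28 (SE), and Zfp42 ran from 3.89 to 6.48 and Pou5f1 from 5.14 to 6.47 between lines. The share of probes above background was 62.6% to 67.7% in poor lines, 50.1% to 61.2% in good and high lines, and 62.6% to 65.9% in ESC lines. The log2 summed level of 10 fibroblast markers was 7.14 to 7.33 in poor lines, 7.64 to 7.67 in good, 7.40 to 7.83 in high and 7.45 to 7.56 in ESC lines. That sum is set by the bright Fn1 and Vim. Between poor and good and high lines 8 of 10 fibroblast markers had a negative difference, with a median of -1.03, and 3 were past an unadjusted p of 0.05, among them Col3a1 (-2.21 ± 0.71, SE) and Col1a2 (-1.77 ± 0.75, SE). For 10 blood and immune markers, 8 of which passed the filter, it was 3.31 to 3.48, 3.48 to 3.65, 3.23 to 3.60 and 3.22 to 3.40. The share of probes and the fibroblast sum do not overlap between poor lines and good and high lines, and the part of these and of the marker lists in the results was not tested. In RNA of a whole culture, more RNA per cell and more cells of a kind cannot be told apart.

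The comparison of grades asks whether lines graded poor carry another interferon programme than lines graded good or high. A few members were higher in every poor line, led by Ube2l6, the conjugating enzyme that passes ISG15 to its targets, at 3.80-fold, and followed by Oas1a, Bst2 and Oas2. None of the 38 members passed limma's test after adjustment over all genes, where 0% of the genes tested did (lowest adjusted p of a member 0.917). At an unadjusted p under 0.05 there were 5 members, all higher in poor lines (13.2%), against 5.13% of all genes in either direction and 3.67% that were higher. Of these 5 members 3 are of the Oas family. Poor lines lay wholly above good and high lines for 4 of 38 members (10.5%, against 3.13% of genes), and wholly below for 0 (against 2.74%). Among these 4, Oas1a and Oas2 are neighbours (probes at chr5:121346735-121346794 and chr5:121180343-121180402, mm9), so they are not separate cases. The median difference of the members was 0.09, against 0.02 over all genes, and 21 of 38 were higher in poor lines (55.3%, against 53.8%). Without KH2_OSKM the median was -0.13. The members wholly above then numbered 4 (10.5%, against 7.52% of genes) and those wholly below 3 (7.89%, against 7.65%).

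Ube2l6 (probe at chr2:84649861-84649920, mm9) read 4.05 in Nanog-GFP OSKM#2, 3.60 in Oct4-GFP OSKM#2 and 2.80 in KH2_OSKM. It read 1.80 in BC_2 OSKM, 1.63 in Nanog-GFP SNEL#3, 2.13 in Oct4-GFP SNEL#1 and 0.67 in Nanog-GFP SNEL#2. The lowest poor line lay above the highest good or high line, and the ESC lines, at 3.83, 3.22 and 3.91, lay among the poor lines. The mean was 3.48 ± 0.64 (SD, n = 3) in poor and 1.56 ± 0.63 (SD, n = 4) in good and high lines, a log2 difference of 1.93 ± 0.41 (SE; adjusted p = 0.917). On 1 slide at a time the difference was 1.93 on slide 1 and 2.13 on slide 2. Slide 2 lacks Oct4-GFP SNEL#1, the highest of the good and high lines for Ube2l6. The other iPSC lines are the same on both slides, so these are not separate sets of lines. When the 20 arrays were fitted singly with the line as a random block, the difference of 1.93 passed the threshold (adjusted p = 0.024). It also did with the slide as a block (1.95, adjusted p = 0.0471). Both of these fits use 1 correlation between arrays of a line for all genes (0.71 and 0.81). For Ube2l6 the arrays of a line differed by 0.29 at most, against a spread of 3.38 between lines. Such a fit counts the second array of a line partly as a new replicate and adds no line. The test over lines, in which the 2 arrays of a line count once, did not share this call.

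Oas1a, an enzyme that on binding double-stranded RNA makes the messenger that activates RNase L, read 4.54, 4.37 and 4.13 in the poor lines, in the same order. It read 3.35, 3.81, 3.48 and 2.91 in BC_2 OSKM, Oct4-GFP SNEL#1, Nanog-GFP SNEL#3 and Nanog-GFP SNEL#2, and 3.77, 3.47 and 3.73 in KH2, Nanog-GFP and Oct4-GFP ESCs. The poor lines were above all 7 other lines. The difference from good and high lines was 0.96 ± 0.23 (SE, n = 3 and 4; adjusted p = 0.928), and that from ESC lines 0.69 ± 0.24. A second Oas1a probe, also above background on 20 arrays, read 1.94, 1.77 and 1.64 in the poor lines and 0.27 to 1.22 in the other 7.

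Bst2, whose product tethers budding virus particles to the cell, read 4.09, 3.74 and 4.03 in the poor lines. It read 2.01 in BC_2 OSKM, 3.49 in Nanog-GFP SNEL#3, 2.97 in Nanog-GFP SNEL#2 and 3.60 in Oct4-GFP SNEL#1, and 2.73, 3.29 and 3.25 in the ESC lines. Here too the poor lines were above all others, with a gap of 0.14 between Oct4-GFP OSKM#2 and Oct4-GFP SNEL#1. The difference from good and high lines was 0.94 ± 0.35 (SE; adjusted p = 0.928), and without BC_2 OSKM it was 0.60 (adjusted p = 0.666).

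Oas2 read 1.05, 0.31 and 0.23 in the poor lines against 0.07, 0.15, -0.43 and -0.06 in the good and high lines, and 0.36, -0.11 and -0.27 in the ESC lines. The groups did not overlap, but Oct4-GFP OSKM#2 and KH2_OSKM lay within 0.16 of Nanog-GFP SNEL#3. The difference was 0.59 ± 0.25 (SE; adjusted p = 0.928), and without Nanog-GFP OSKM#2 it was 0.33 (adjusted p = 0.985). Oasl1, an Oas-like protein without that enzyme activity, was also past an unadjusted p of 0.05, at 0.75 ± 0.25 (SE), but its lines overlapped, since Oct4-GFP SNEL#1 read 2.03 and Nanog-GFP OSKM#2 1.70.

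**Figure D2:**
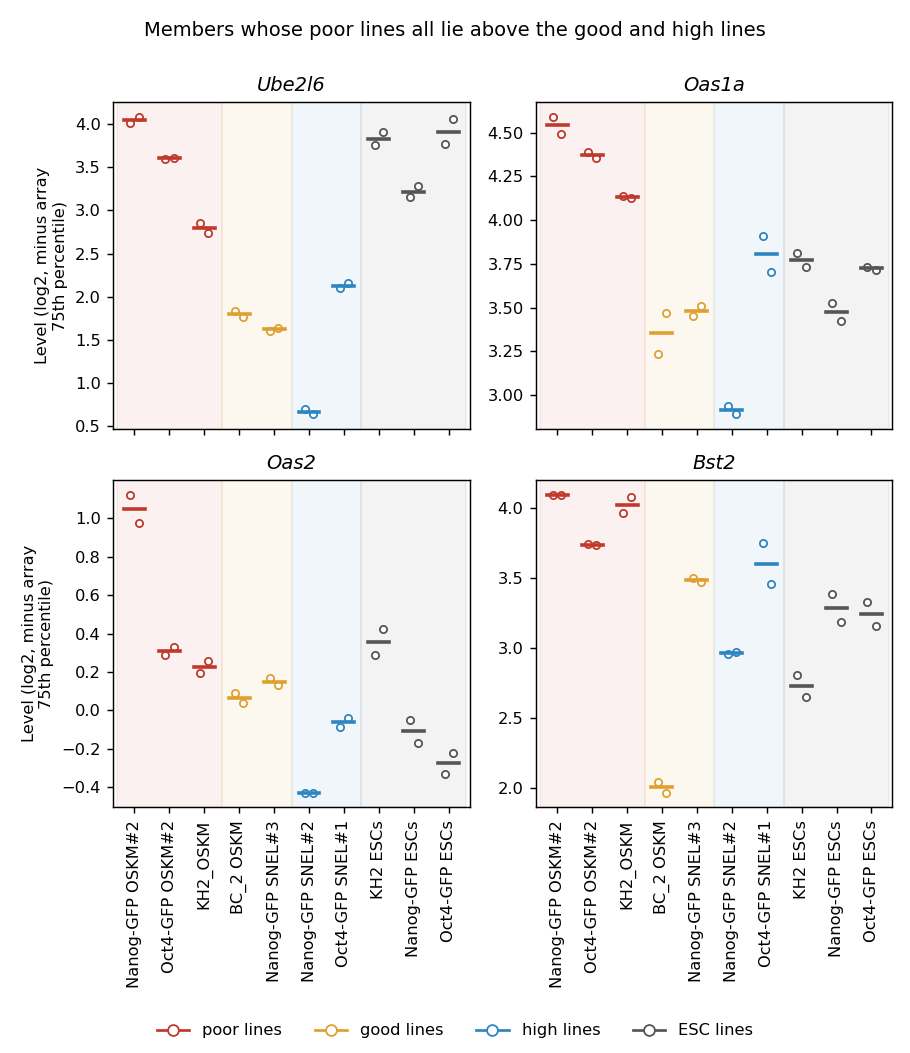
Level (log2, minus the array's 75th percentile) of Ube2l6, Oas1a, Oas2 and Bst2 on each array (open circles) and as the mean of the 2 arrays of each line (bars), by grade. The poor lines lie above the good and high lines in each panel, and the ESC lines lie among the poor lines for Ube2l6, at 3.22 to 3.91, but below them for Oas1a and Bst2.

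The lines of the other members overlapped between the grades. In the Oas family 4 of 5 tested members had a positive difference, and the exception, Oasl2 (-0.92 ± 1.24, SE), was above background on 11 of 20 arrays. All 3 Ifitm genes, whose proteins block virus entry at membranes, had a negative difference, from -0.50 for Ifitm1 to -0.04 for Ifitm2. Isg15 itself did not follow its conjugating enzyme, with a difference of 0.04 ± 0.24 (SE). It read -2.71, -2.07 and -1.63 in the poor lines and -2.19, -2.17, -2.13 and -2.20 in the good and high lines. Its arrays of a line differed by up to 1.15, more than its spread of 1.08 between lines. Among the 7 regulators the differences ran from -0.58 for Irf2 to 0.29 for Irf8. Ifih1, an RNA sensor, had a difference of -0.91 ± 0.86 (SE), yet it was well above background on 0 of 6 arrays of poor lines and 3 of 8 of good and high lines. With a line left out it ran from -1.64 (without KH2_OSKM) to -0.25 (without BC_2 OSKM). Psmb9, a subunit of the immunoproteasome, had 0.82 ± 0.84 (SE) with overlapping lines, and ran from 0.38 (without Nanog-GFP SNEL#3) to 1.32 (without BC_2 OSKM).

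The comparison of factors asks whether SNEL lines differ from OSKM lines. Ube2l6 was again the member with the largest difference, 3.01-fold lower in SNEL lines, followed by lower Oas3 and Psmb9 and higher Irgm1 and Rsad2. Oas3 was above background on 4 of 6 arrays of SNEL lines and 8 of 8 of OSKM lines. None of the 38 members passed the adjusted test (lowest adjusted p 0.516), and 0.00736% of genes did, namely Fgf22 (1.72 ± 0.14, adjusted p = 0.0156) and Grem1 (3.40 ± 0.33, adjusted p = 0.0346), both higher. At an unadjusted p under 0.05 there were 4 members (10.5%), against 9.4% of genes. SNEL lines lay wholly above OSKM lines for 3 members (7.89%, against 3.73%) and wholly below for 1, Xaf1, whose probes disagree (2.63%, against 3.79%). Differences over 2-fold were seen in 8 of 38 members (21.1%), against 5.49% of genes. The members' median was -0.01, against 0.00 (-0.00108) over all genes, with 19 higher (50%, against 49.9%) and 19 lower. In the same comparison 9 of 10 fibroblast markers had a positive difference (median 1.08, 2 past an unadjusted p of 0.05), and the 4 endoderm markers tested of 5 had a negative one (median -0.87, 2 past it, Foxa2 and Sox17). The SNEL lines were not alike in the fibroblast markers. Oct4-GFP SNEL#1 was the highest SNEL line for all of them but Vim and Fn1, where it was the lowest. Col3a1 read 0.02 in Oct4-GFP SNEL#1, -2.20 in Nanog-GFP SNEL#2 and -5.48 in Nanog-GFP SNEL#3. In OSKM lines Col3a1 read -5.45 to -3.33. The part of these markers in the members' values was not tested.

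**Figure D3:**
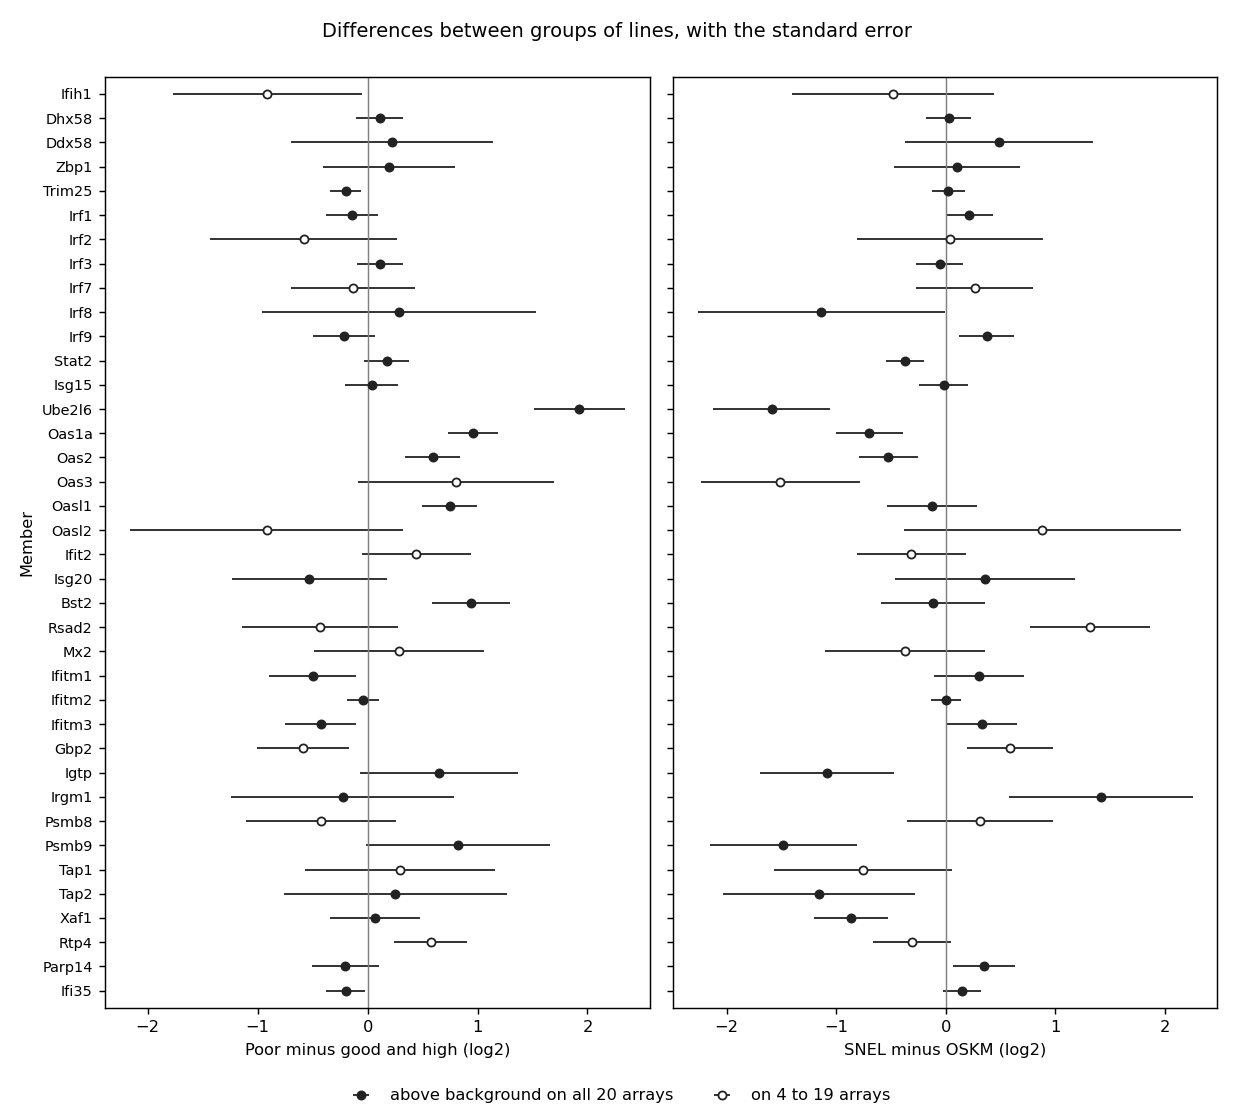
Difference of each tested member in log2 units (points) with its standard error (bars), for poor minus good and high lines and for SNEL minus OSKM lines. Filled points are members above background on all 20 arrays. Ube2l6 stands at 1.93 on the left and -1.59 on the right, while 21 of the 38 members lie above 0 on the left and 19 on the right.

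For Ube2l6 the SNEL lines had the values 1.63, 0.67 and 2.13 and the OSKM lines 4.05, 3.60, 2.80 and 1.80, a difference of -1.59 ± 0.54 (SE, n = 3 and 4; adjusted p = 0.516). The groups overlapped through BC_2 OSKM, the good OSKM line, which lay with the SNEL lines. Between lines of the same reporter, SNEL minus OSKM was -3.38 and -2.43 for the pair of Nanog-GFP SNEL lines and -1.48 for the Oct4-GFP lines.

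The members whose SNEL and OSKM lines did not overlap had small gaps or few detected arrays. Parp14, an ADP-ribosyltransferase, read -1.31, -1.23 and -1.03 in SNEL lines and -1.41, -1.67, -1.43 and -1.64 in OSKM lines, a difference of 0.35 ± 0.29 (SE) with a gap of 0.10 between the groups. Rsad2, which encodes viperin, had 1.31 ± 0.55 (SE; adjusted p = 0.518), but was above background on 3 of 6 arrays of SNEL lines and 3 of 8 of OSKM lines. Gbp2, a guanylate-binding protein gene, had 0.58 ± 0.39 (SE), with 3 of 6 and 2 of 8 arrays above background. Within slide 2, which lacks Oct4-GFP SNEL#1, its sign turned (-0.25). The brightest Xaf1 probe read 0.07, 0.12 and 0.28 in SNEL lines and 0.41, 0.59, 1.08 and 2.01 in OSKM lines (-0.86 ± 0.34, SE; adjusted p = 0.516).

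For Xaf1 the probes disagreed. A second Xaf1 probe, above background on 18 of 20 arrays, read 3.09 and 3.28 in Nanog-GFP SNEL#3 and Nanog-GFP SNEL#2, -6.17 in BC_2 OSKM and 0.17 to 1.15 in the other 7 lines. It gave a SNEL minus OSKM difference of 3.18, and the mean of both probes 1.16. The direction for Xaf1 therefore depends on the probe. For Oas1a, Ddx58 and Isg20, which also have a second probe, both probes had the same sign in all 5 comparisons, and for Zbp1 and Irgm1 in 4 of 5. Zbp1 turned from 0.10 to -0.33 for SNEL minus OSKM lines, and Irgm1 from 0.05 to -0.06 for good and high against ESC lines.

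Where OSKM and SNEL lines share a reporter, several members went in opposite directions. In Nanog-GFP lines Psmb9 was 1.81 and 2.11 lower in the SNEL lines than in Nanog-GFP OSKM#2 (-1.81 and -2.11), while Oct4-GFP SNEL#1 was 0.82 above Oct4-GFP OSKM#2. Oas3 gave -1.62 and -2.23 in Nanog-GFP lines and 1.14 in Oct4-GFP lines, and Tap2 gave -1.33, -2.13 and 1.96. Irgm1 went the other way, at 0.82, 1.33 and -1.19. The Oas3 value of -2.23 rests on Nanog-GFP SNEL#3, where Oas3 was above background on 0 of 2 arrays. With 1 or 2 lines on a side these differences were not tested, and the share of all genes with opposite signs was not computed. Without Oct4-GFP SNEL#1 the number of members whose SNEL and OSKM lines do not overlap went from 3 to 8 in the upward direction (21.1%, against 17.9% of genes) and from 1 to 7 in the downward direction (18.4%, against 13.1% of genes), and 339 genes passed the adjusted test in place of 2, with 0 members among them.

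A different set of lines stood out for the antigen-processing members Psmb9, Tap1 and Tap2 and for Igtp and Oas3. These had the same 5 highest lines: KH2_OSKM, BC_2 OSKM, Oct4-GFP SNEL#1, Nanog-GFP ESCs and Nanog-GFP OSKM#2. These 5 lines hold poor, good, high and ESC lines and both factor sets, so the set crosses grade and factors. It was picked, after the values were seen, as the most frequent set of 5 highest lines among the members. The share of members with it is therefore high through the choice itself. Psmb9, Tap1 and Tap2 are also close neighbours on 1 chromosome, so the 5 genes are not separate cases. The set is given as a description, with no test, and the shares below are no evidence for it. Of the 38 members 5 had this set (13.2%), against 618 of 27156 genes (2.28%), or 512 of the 15356 genes whose lines spread over more than 1 log2 unit (3.33%). Of the 4 endoderm markers tested, Gata6 and Gata4 had 4 of these lines as their highest, while Sox17 and Foxa2 followed them in part. Gata6 read -0.93 in KH2_OSKM, -1.78 in BC_2 OSKM, -0.92 in Oct4-GFP SNEL#1 and -0.90 in Nanog-GFP ESCs, but -3.50 in Nanog-GFP OSKM#2 and -4.14 to -2.50 in the others. Gata4 had the same 4 highest lines. Sox17 had KH2_OSKM, BC_2 OSKM and Oct4-GFP SNEL#1 as its highest, but Nanog-GFP ESCs (-3.29) lay below Oct4-GFP OSKM#2 (-3.14). Foxa2 was highest in KH2_OSKM, Nanog-GFP ESCs and BC_2 OSKM. In Oct4-GFP SNEL#1 Foxa2 read -3.74, below Oct4-GFP OSKM#2 (-3.51) and the ESC lines (-3.36 to -3.09). Their part in the members' values was not tested.

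Tap2, which with Tap1 forms the pump that carries peptides into the endoplasmic reticulum, showed the widest gap. It read -0.05 in BC_2 OSKM, -0.43 in KH2_OSKM, -0.64 in Oct4-GFP SNEL#1, -0.76 in Nanog-GFP ESCs and -1.35 in Nanog-GFP OSKM#2. It read -2.60 in Oct4-GFP OSKM#2, -2.68 in Nanog-GFP SNEL#2, -2.71 in KH2 ESCs, -3.37 in Oct4-GFP ESCs and -3.48 in Nanog-GFP SNEL#3. The fifth and sixth lines were thus 1.25 apart, while the 2 arrays of a line differed by 0.27 at most.

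Psmb9 was between -0.20 and 0.76 in the 5 lines and between -2.20 and -0.84 in the others, with means 2.04 apart. Tap1 was between -3.70 and -2.80 in the 5 lines and between -5.87 and -4.20 in the others, with means 1.96 apart. In Nanog-GFP SNEL#3, its lowest line, Tap1 was above background on 0 of 2 arrays. The probes of Psmb9, Tap1, Psmb8 and Tap2 lie within 34002 bases of chromosome 17 (34319174 to 34353175, mm9), in the major histocompatibility complex. Psmb8, another immunoproteasome subunit, was above background on 14 of 20 arrays, and 4 of its 5 highest lines were of this set. Genes of antigen presentation outside the members went both ways. B2m, the light chain of class I molecules, read 2.72 in KH2_OSKM and 2.81 in BC_2 OSKM and 0.60 to 1.97 in the other 8 lines. Psmb10, also an immunoproteasome subunit, was lowest in 4 lines of the set, at 3.81 in KH2_OSKM, 3.46 in BC_2 OSKM, 3.41 in Oct4-GFP SNEL#1 and 3.40 in Nanog-GFP ESCs, against 4.08 to 4.87 in the other 6 lines.

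Igtp, an immunity-related GTPase gene on chromosome 11, was between -0.81 and 0.09 in the 5 lines and between -2.52 and -1.21 in the others. Oas3, on chromosome 5, was between -2.79 and -1.53 against -5.02 and -3.61. Its lowest value, in Nanog-GFP SNEL#3, comes from arrays of which 0 of 2 were above background. Oas1a and Oas2, also on chromosome 5, did not have this set. Irf8, a regulator best known from blood cells, had 4 of its 5 highest lines in the set and reached 1.84 in KH2_OSKM against -3.19 in Nanog-GFP SNEL#3.

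Ddx58, which encodes the RNA sensor RIG-I, was low where these genes were high. It read 1.35 in KH2_OSKM, 1.27 in BC_2 OSKM, 1.08 in Oct4-GFP SNEL#1 and 1.39 in Nanog-GFP ESCs. In the other 6 lines it lay between 3.02 in Oct4-GFP ESCs and 4.06 in Nanog-GFP SNEL#3, with Nanog-GFP OSKM#2, the fifth line of the set, at 3.39. No line lay between, and its second probe gave the same 4 lowest lines, at -3.33, -3.49, -4.01 and -3.33 against -1.95 to -1.19. The 2 arrays of a line differed by 0.15 at most. Irgm1, a GTPase gene of the same family as Igtp, was lowest in BC_2 OSKM (-4.07) and KH2_OSKM (-3.39) and highest in Nanog-GFP SNEL#3 (-0.21), and its second probe ran from -6.08 to -2.33 in these same lines.

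**Figure D4:**
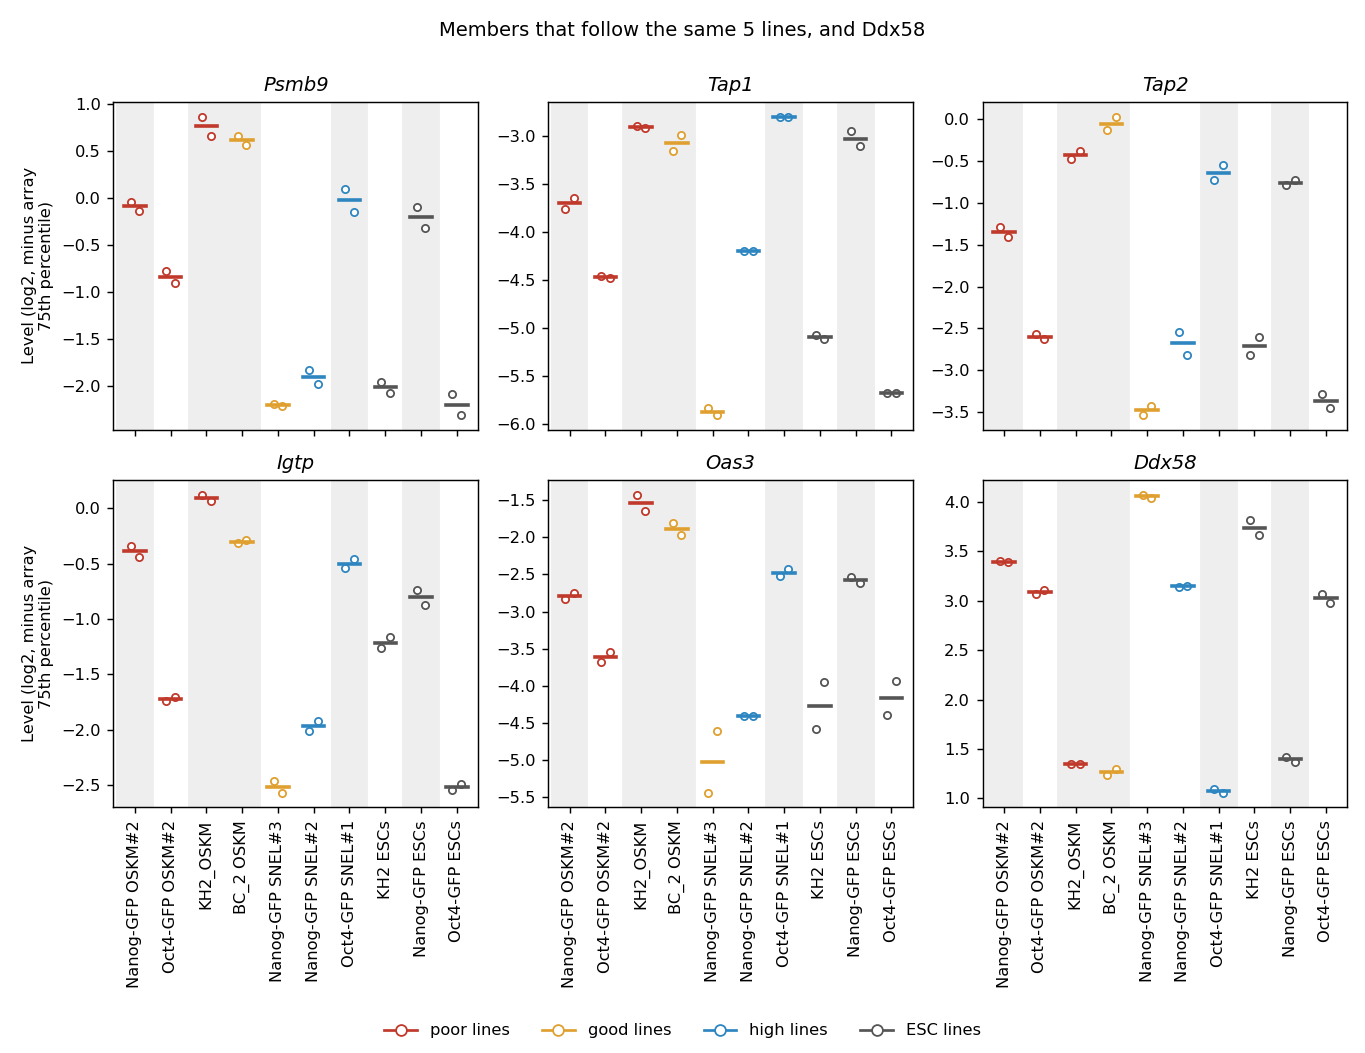
Level (log2, minus the array's 75th percentile) of Psmb9, Tap1, Tap2, Igtp, Oas3 and Ddx58 on each array (open circles) and as the mean of the 2 arrays of each line (bars). Grey columns mark the 5 lines that are highest for the first 5 genes. Ddx58 is low, at 1.08 to 1.39, in 4 of these lines and at 3.02 or above in the other 6 lines.

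Against the ESC lines the members moved little as a group. None of the 38 passed the adjusted test for all iPSC lines (lowest adjusted p 0.312; 0% of genes passed), and at an unadjusted p under 0.05 there was 1 member, Ube2l6 (2.63%, against 9.38% of genes). No member's iPSC lines lay wholly above (0.648% of genes) or below (3.61%) the ESC lines. The median difference was 0.11, against -0.05 over all genes, and 24 of 38 were higher in iPSC lines (63.2%, against 41.8%). The iPSC and ESC arrays are spread unevenly over the slides, and this fit has no term for the slide. In the same comparison 8 of 10 fibroblast markers had a negative difference, with a median of -2.56, and their part in these values was not tested.

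Isg20, an exonuclease gene, had the largest difference from ESC lines, 1.30 ± 0.64 (SE, n = 7 and 3; adjusted p = 0.615). It read 1.81 in Nanog-GFP SNEL#2, 0.57 in KH2_OSKM, 0.07 in BC_2 OSKM and 0.02 in Oct4-GFP SNEL#1, but -1.04 in Oct4-GFP OSKM#2, -1.11 in Nanog-GFP OSKM#2 and -1.89 in Nanog-GFP SNEL#3. The ESC lines read -0.75, -1.42 and -2.40, so iPSC and ESC lines overlapped. Ube2l6 had -1.27 ± 0.37 (SE), Psmb9 0.94 ± 0.75 (SE) and Irf2, which was above background on 6 of 20 arrays, 0.86 ± 0.77 (SE).

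The poor lines and the good and high lines share the ESC lines as their controls, and their values are set side by side. Ube2l6 differed from ESC lines by -0.17 in poor and by -2.10 ± 0.41 (SE; adjusted p = 0.494) in good and high lines, whose values all lay below the ESC lines. With the 20 arrays fitted singly and the line as a random block, the latter passed the threshold (adjusted p = 0.0157). That fit counts the second array of a line partly as a new replicate, and the test over lines did not share this call. Isg15 also lay wholly below ESC lines in good and high lines, by 0.22 on average (-0.22 ± 0.24, SE), and these 2 members (5.26%) stand against 6.79% of genes. For Isg15 this holds for line means only. The arrays of Nanog-GFP SNEL#2 read -1.55 and -2.71, and the former lay above all ESC arrays (-2.16 to -1.84). Trim25 (0.35 ± 0.14, SE), a ligase that acts on RIG-I, and Ifi35 (0.37 ± 0.18, SE) lay wholly above, against 1.45% of genes. Poor lines lay wholly above ESC lines for Oas1a, Oasl1 and Bst2 (7.89% of members, against 6.62% of genes), by 0.69, 0.50 and 0.87, and wholly below for 0 (against 11.2%). Adjusted calls numbered 0 in both comparisons, for the 38 members as for all genes, while 2 members in each were past an unadjusted p of 0.05 (5.26%, against 9.75% and 7.59%).

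The members varied more between lines than most genes. The difference between the highest and the lowest line was over 2 log2 units, which is 4-fold, for 21 of 38 members (55.3%), against 19.8% of genes. Over the genes above background on all 20 arrays it was 10 of 26 members (38.5%) against 10% of 18488 genes. These 10 were Irf8, Isg20, Ube2l6, Bst2, Ddx58, Zbp1, Igtp, Irgm1, Psmb9 and Tap2. The 7 members that spread over less than 1 log2 unit were Ifitm2 (0.40), Trim25 (0.61), Irf3 (0.66), Ifi35 (0.66), Dhx58 (0.69), Irf1 (0.82) and Stat2 (0.86). Families were not uniform in this: Ifitm1 spread over 1.54 and Ifitm3 over 1.61, and the regulators Irf8, Irf2 and Irf7 over 5.03, 3.41 and 2.70. KH2_OSKM had the highest value of 11 members (28.9%, against 16.2% of genes) and Oct4-GFP ESCs of 0 (against 12.1%). The arrays of KH2_OSKM had 77.2% and 58.2% of probes above background. Without the former KH2_OSKM was highest for 10 members (26.3%, against 9.49% of genes), Irf7, with array values of -3.39 and -7.41, being the one lost.

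The other listed genes of the pathway gave 0 adjusted calls between the grades. Of 12 interferon ligand genes 9 had a probe, with none found for Ifna6, Ifnz and Il28a. Of these 9, 6 passed the filter, Ifnb1 and Ifng not among them. The differences of the 6 between poor and good and high lines ran from -0.36 ± 0.17 (SE) for Ifna1 to 0.84 ± 0.59 (SE) for Ifnk. The 6 receptor genes passed, and 0 of 6 passed the adjusted test in any of the 5 comparisons. Among the signal transducers, the kinase gene Jak1 differed by 0.20 ± 0.21 (SE) between the grades. Of 24 other interferon-stimulated genes that passed the filter, 17 had a positive and 7 a negative difference between the grades, with a median of 0.10 and 0 past an unadjusted p of 0.05. Of the 6 antigen-presentation partners outside the members, 1 had a positive and 5 a negative difference between the grades, with a median of -0.10.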

How the data were processed

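Each array held 62976 spots, of which 59305 were not controls. Per the file headers, the intensity of each spot (array design 028005, probe positions of mm9) came from Feature Extraction 10.1.1.1, which subtracted background and removed spatial trends. The authors also deposited log2 values of the same arrays, with column medians of 6.27 to 6.28 and a centring that is not given in the sources used here. They served as an alternative. The submitters' processing notes name limma, with no version.

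Log2 intensities were scaled by the array's 75th percentile (a signal of 583 to 1071), flagged spots set to missing and 432 repeated probes averaged. Of 55681 probes, 38750 were above background on 4 or more arrays (48.9% to 77.2% of probes per array), and 26413 matched a RefSeq accession. Members kept the file's gene name. The lowest correlation between arrays of a line was 0.971. Their number limits the precision.

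Line means were fitted in limma 3.58.1 (R 4.3.3) over all 10 lines, with adjustment by Benjamini and Hochberg over 27156 genes and a threshold of 0.05. Full values went to members past the threshold, to those whose lines do not overlap by grade or factors, and to the largest differences (6, 6 and 4). Oasl1, Isg15 and the 5-line set were added after their values were seen. Members and lists were chosen with earlier results of these data known. A listed pathway gene is not reported here. The method was tested on simulated data.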

Additional observations from a re-analysis of the deposited data

Results flagged for a closer look

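Among 48 sets of lines checked for 16 members, 2 held a line far from the others, where chance flags about 1 in 20 sets. Bst2 read 2.01 in BC_2 OSKM, against 3.74 to 4.09 in the other OSKM lines. Xaf1 read 2.01 in BC_2 OSKM, against 0.07 to 0.28 in the other good and high lines, while its second probe read -6.17 in that line.

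For 4 of these 16 members SNEL minus OSKM had opposite signs in the Oct4-GFP and in both Nanog-GFP pairs of lines, and the difference was not tested. The share of all genes with such signs was not computed, so the count does not set the members apart. Oas3 had 1.14 in Oct4-GFP lines, against -2.23 (Nanog-GFP SNEL#3, above background on 0 of 2 arrays) and -1.62. Psmb9 had 0.82, against -2.11 and -1.81. Tap2 had 1.96, against -2.13 and -1.33. Irgm1 had -1.19, against 0.82 and 1.33.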

How the results depend on the processing

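The members' median kept within the spread between lines (0.24, SD) of its value in all 5 comparisons under each alternative run: background correction, quantile scaling, 75th percentile over probes detected on all arrays, the authors' table, both filters, the mean of probes, slide, array fits, within-slide values and lines left out. That spread exceeds the medians, and their signs were not stable. The median between grades was -0.05 with the background correction and -0.05 within slide 2, which lacks Oct4-GFP SNEL#1. It ran from -0.13 to 0.18 with lines left out, below 0 without KH2_OSKM, Nanog-GFP SNEL#3 or Oct4-GFP SNEL#1. With lines left out it ran from -0.08 to 0.11 between factors, and against ESC lines from -0.00497 to 0.22 for iPSC, -0.00511 to 0.29 for poor and -0.08 to 0.18 for good and high lines. Members called stayed at 0, except for Ube2l6, as 1 of 38, between grades with the slide block, with the arrays fitted singly and with the replicate block (log2 difference 1.93, adjusted p = 0.0465), and against ESC lines in the latter pair of fits. These fits of single arrays count the second array of a line partly as a new replicate. Over 18 settings 3 to 5 members lay wholly higher and 0 to 3 wholly lower in poor lines. With an iPSC line left out, 10.5% to 13.2% of members lay wholly higher, against 4.46% (without Nanog-GFP SNEL#3) to 7.52% of genes (without KH2_OSKM). There were 3 members wholly lower without KH2_OSKM (7.89%, against 7.65% of genes) and without BC_2 OSKM (against 5.39%). Between factors 5 lay wholly lower without BC_2 OSKM (13.2%, against 5.97% of genes). Over 8 settings 3 to 6 members shared the 5 highest lines, and the share over all genes was not computed there. Oasl2 turned to 0.18 without Nanog-GFP OSKM#2. Without the KH2_OSKM array with most probes above background (chosen after seeing the data), Ube2l6 differed by 1.91 and Oas1a by 0.96.

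Genes called between SNEL and OSKM lines numbered 7 with quantile scaling, 1 with the other percentile, 1 with the filter on all arrays, 0 with the mean of probes and 0 with the compared lines alone, where good and high against ESC lines gave 1. With the slide block, calls were 4 between grades, 8 between factors, 4 for iPSC and 12 for poor against ESC lines. With the arrays fitted singly they were 6, 82, 22 and 37, and 10 for good and high lines. With the replicate block they were 5, 46, 19, 24 and 9. Same-numbered arrays are tied by no label, and their deviations correlated from 0.07 to 0.41 between groups. With lines left out in turn, calls ran from 0 to 1 between grades, 0 to 339 between factors (339 without Oct4-GFP SNEL#1, 10 without Oct4-GFP OSKM#2), 0 to 4 for iPSC, 0 to 2 for poor and 0 to 1 for good and high against ESC lines. The cause of these shifts was not tested. Groups of 2 to 4 lines and dim signal limit what can be seen, above all for the 12 tested members not above background on all arrays.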
